A study of Homo sapiens with 6 samples.

Results

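The endoplasmic reticulum (ER) folding and stress genes are 49 human genes that encode the chaperones, disulfide isomerases, sensors, translocation machinery and degradation factors of the organelle in which secreted and membrane proteins are made. They were taken by current gene symbol from a list and found among the 57500 Ensembl gene identifiers of a table of TPM, a transcript level normalised for gene length and for the total of the library. All 49 were present, and all 49 were among the 15341 genes that reached 1 TPM in at least 3 of the 6 libraries and were tested. The libraries were polyA-selected RNA-seq of HEK293T cells, an established human embryonic kidney cell line that carries the SV40 large T antigen, grown in DMEM with 10% FBS. The 3 control libraries are labelled vector control, with genotype WT and titles beginning Mock. The other 3 come from cells transfected with PolyJet, a transfection reagent, and pcDNA3, a plasmid with a cytomegalovirus promoter, carrying PRMT1, the main asymmetric protein arginine methyltransferase of mammalian cells. Not given in the labels are whether control cells also received plasmid and reagent, how long after transfection RNA was taken, what share of the cells took up the plasmid, or whether the replicates are separate cultures. The p-values therefore reflect library-to-library spread alone, and that spread may be technical. A small change in every cell and a large change in the transfected cells alone cannot be told apart in such bulk RNA, nor can fewer cells and less RNA per cell.

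New proteins enter the ER through the Sec61 channel, lose their signal peptide to signal peptidase, and fold with the help of lumenal chaperones, the calnexin cycle for glycoproteins and enzymes that form disulfide bonds. Proteins that fail to fold are drawn back to the cytosol and degraded, a route called ER-associated degradation. When unfolded protein builds up, the sensors IRE1, ATF6 and PERK start the unfolded protein response, in which ATF6 and the spliced form of XBP1 raise the transcription of chaperone and degradation genes through short promoter elements.

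PRMT1 was at 377.7, 396.9 and 368 TPM in the control libraries and at 71660, 62890 and 84920 TPM in the libraries labelled PRMT1 overexpression, a log2 difference of 7.57 on the log2(TPM + 1) scale, so the labels hold for the transfected gene. TPM of a library add up to 1000000, and the typical gene was higher in the PRMT1 libraries as deposited, with a median log2 difference of 0.30 over all tested genes. Median-of-ratios scaling, which levels the typical gene between libraries, brought that median to 0.0056, and quantile normalization, which gives all libraries 1 distribution, brought it to -0.0112. Results are given on the deposited scale, with the scaled values beside calls that they change. Reads recovered from the TPM steps numbered 18196149 to 23163580 per library, and the lowest count of any of the 49 genes in a library was 90 reads. Control 3 and PRMT1 library 2 stood apart from their groups in recovered reads. Chi-square per degree of freedom was 2.71 between controls 1 and 2, but 16.8 and 21.6 between these and control 3. It was 5.2 between PRMT1 libraries 1 and 3, but 15 and 23.3 between these and library 2. The median of the 49 genes lay 0.08 log2 units below the other controls in control 3 and 0.20 above its group in PRMT1 library 2. Over all tested genes these were -0.11 and 0.13. For the 49 genes PRMT1 library 3 was at -0.097, so this median does not single out control 3. The epithelial keratins KRT8 and KRT18 were present in every library, and the mature kidney markers UMOD and AQP2 were at or near 0. Of the secretory gland genes, INS, PRSS1 and AGR2 were listed at 0, and ALB was near 0, with a highest value of 0.28 TPM in PRMT1 library 2.

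The 49 genes did not move as a block. HSPA5 and HSP90B1, the major HSP70 and HSP90 chaperones of the ER, and CALR, the lectin chaperone calreticulin, fell, and so did PDIA5, ATF6B and DERL3. XBP1 and ATF6, transcription factors of the unfolded protein response, rose with TXNDC11, SEL1L and EDEM3. These 11 genes passed limma's test at an adjusted p of 0.05 in the same direction under each of the 17 alternative ways of processing that were tried. How many of all tested genes did so was not counted, so the 11 are not set against a background. In all, 14 of the 49 genes were called higher, against 40.3% of all tested genes, 12 were called lower, against 8.64%, and 23 were not called, where 49% of all tested genes were called in either direction. After median-of-ratios scaling, 6 were higher, against 23.5% of all tested genes, and 29 were lower, against 24.1%. After quantile normalization, 7 were higher, against 20.3%, and 14 were lower, against 19.4%. The number of genes called in each direction thus depends on the scaling. The 11 genes above were picked because they kept their side under every setting, both scalings included. Without control 3 and PRMT1 library 2, the counts were 13 higher and 18 lower, against 37.4% and 14.7% of the 14119 genes then tested. The ranges of the 3 control and 3 PRMT1 libraries did not overlap for 15 genes that were higher and 15 that were lower, against 49.8% and 11.6% of all tested genes. The median log2 difference of the 49 genes was 0.02 on the deposited scale, which is 0.29 below the median of all tested genes, and single genes ranged from -1.29 to 1.33.

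**Figure D1:**
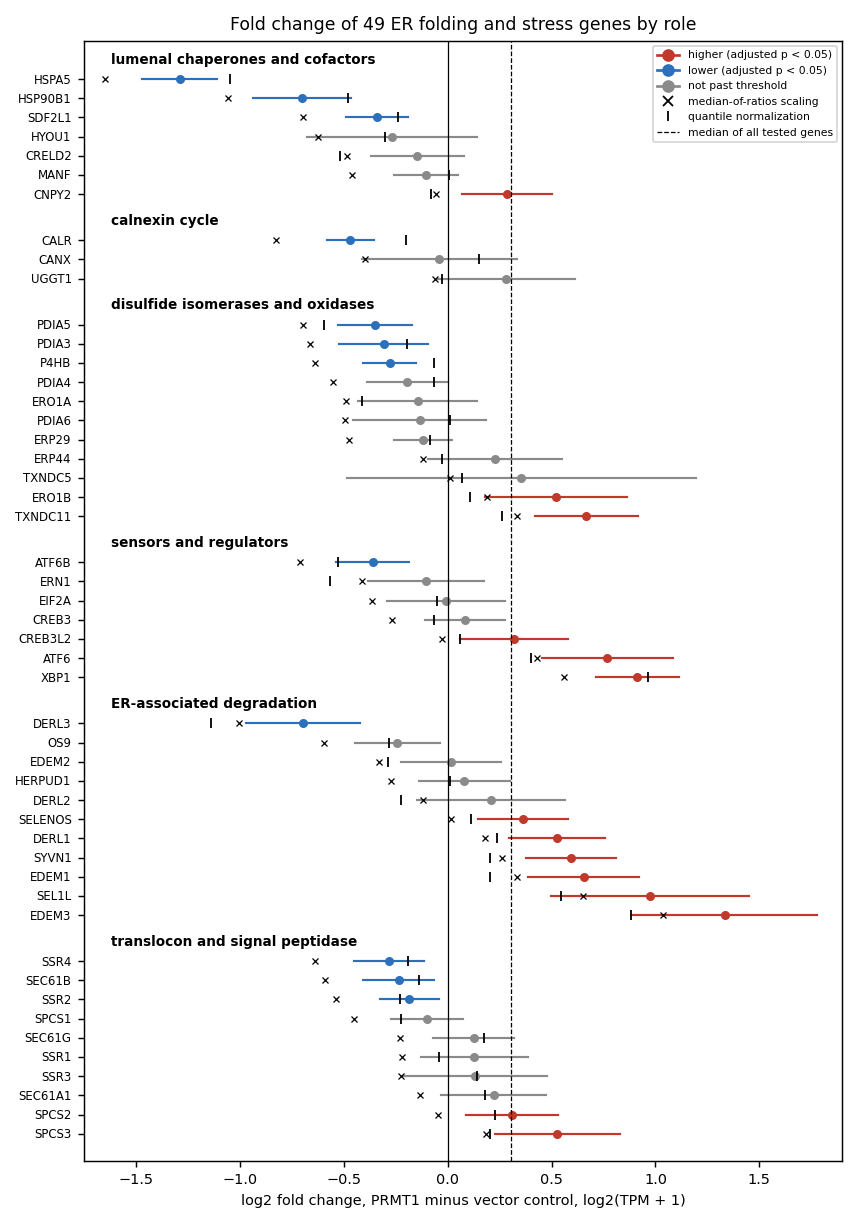
Log2 difference between PRMT1 and control libraries, on the log2(TPM + 1) scale, for each of the 49 genes, grouped by role. Dots with bars are limma estimates with 95% confidence intervals (3 libraries a group), crosses the same after median-of-ratios scaling, vertical ticks after quantile normalization, and the dashed line the median of all tested genes, 0.30. The dot of HSPA5 lies farthest to the left at -1.29 and that of EDEM3 farthest to the right at 1.33.

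The promoters of HSPA5, HSP90B1, CALR and XBP1 are shown because these abundant genes moved in opposite directions and share a promoter element of the unfolded protein response. The ER stress response element (ERSE) was searched on both strands as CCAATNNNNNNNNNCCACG in the 250 bases upstream of each RefSeq start site of GRCh38.p14. Each sequence is read 5′ to 3′ along the strand of its gene and ends at the base before the start site, and capitals mark the ERSE match on either strand.
HSPA5, chr9:125241344-125241593, minus strand: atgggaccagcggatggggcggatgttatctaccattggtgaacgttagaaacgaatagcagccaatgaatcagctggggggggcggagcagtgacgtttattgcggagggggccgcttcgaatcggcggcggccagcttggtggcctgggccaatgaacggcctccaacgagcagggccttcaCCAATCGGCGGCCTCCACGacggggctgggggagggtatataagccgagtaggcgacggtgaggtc
HSP90B1, chr12:103930160-103930409, plus strand: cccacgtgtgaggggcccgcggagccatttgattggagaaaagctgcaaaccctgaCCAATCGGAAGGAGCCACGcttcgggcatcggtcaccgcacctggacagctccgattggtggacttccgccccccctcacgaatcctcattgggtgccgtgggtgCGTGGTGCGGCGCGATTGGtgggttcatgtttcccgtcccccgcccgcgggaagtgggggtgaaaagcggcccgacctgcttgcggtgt
CALR, chr19:12938359-12938608, plus strand: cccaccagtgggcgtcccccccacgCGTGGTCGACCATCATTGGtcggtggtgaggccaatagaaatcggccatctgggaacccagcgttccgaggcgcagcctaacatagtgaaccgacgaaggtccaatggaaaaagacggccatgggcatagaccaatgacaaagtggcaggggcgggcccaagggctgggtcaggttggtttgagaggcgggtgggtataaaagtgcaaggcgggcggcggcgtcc
XBP1, chr22:28800570-28800819, minus strand: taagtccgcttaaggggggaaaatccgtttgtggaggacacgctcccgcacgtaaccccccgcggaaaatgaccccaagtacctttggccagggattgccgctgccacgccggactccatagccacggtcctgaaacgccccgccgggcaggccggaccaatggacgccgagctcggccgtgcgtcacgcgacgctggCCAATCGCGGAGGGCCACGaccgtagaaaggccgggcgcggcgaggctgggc
In the HSPA5 window the match runs from 66 to 48 bases upstream of the start site, and in the XBP1 window from 52 to 34 bases upstream. HSP90B1 has a match on each strand, and in CALR the single match lies on the opposite strand from 225 to 207 bases upstream. The GENCODE 29 span of HSP90B1 begins upstream of the window shown.

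Of the 49 genes, 45 were matched to the RefSeq promoter table, with 57 windows, and SPCS1, PDIA3, DERL1 and DERL3 were not. The ERSE letters occurred in 9 of the 45 (20%): HSPA5, HSP90B1, CALR, CANX, CRELD2, PDIA6, ERO1B, XBP1 and EIF2A. They occurred in 25 of all 27305 genes with a promoter window (0.0916%) and in 16 of the 10624 tested genes with one (0.151%). Both counts include the 9 genes named, and the difference in share was not tested. The variant ERSE-II, ATTGGNCCACG, occurred in HERPUD1, HYOU1 and SDF2L1, which is 6.67% of the 45 genes against 0.0659% of all genes. The element bound by XBP1 and ATF6 known as UPRE, TGACGTG, occurred in HYOU1, SSR3, SSR4 and TXNDC5, which is 8.89% against 2.05%, and the UPRE match of HYOU1 overlaps 1 of its 2 ERSE-II matches. ERSE matches were found on both sides: 3 of the 10 genes called lower with a promoter window had one, as did 2 of the 13 called higher and 4 of the 22 not called. XBP1 and ERO1B are the 2 that were higher, and HSPA5, HSP90B1 and CALR are the 3 that were lower. A match is a run of letters, and binding was not measured.

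Among the 7 lumenal chaperones and cofactors, 3 fell, 1 rose and 3 were not called, where 8.64% of all tested genes were lower and 40.3% higher. After median-of-ratios scaling 6 were lower and none higher (24.1% and 23.5% of all). HSPA5 (BiP, ENSG00000044574, chr9:125234853-125241330 in GRCh38), the HSP70 chaperone that binds nascent chains and holds the stress sensors inactive, was at 9257, 9479 and 8496 TPM in control libraries and 3503, 4098 and 3545 TPM after PRMT1 transfection. The groups were far apart: it was the number 6 transcript by mean level among the tested genes in the controls and number 25 in the PRMT1 libraries, a level 2.44-fold lower. The log2 difference was -1.29 (SE 0.08, limma adjusted p = 6.99e-05), with -1.65 after median-of-ratios scaling and -1.05 after quantile normalization. A two-sided exact permutation test of the mean log2(TPM + 1) of HSPA5 gave p = 0.1, the smallest that 3 against 3 libraries allow. HSP90B1 (GRP94), which folds integrins and Toll-like receptors, was at 1017, 1045 and 983 TPM in vector control, against 579, 736 and 568 TPM with PRMT1. It fell in every PRMT1 library, least in library 2, with a log2 difference of -0.70 (SE 0.10, limma adjusted p = 0.00132), which became -1.06 and -0.48 after these scalings. SDF2L1, a cofactor of the BiP and J-protein cycle, was at 298, 319 and 332 TPM in control libraries and 243, 254 and 249.9 TPM after PRMT1 transfection. Its log2 difference was -0.34 (limma adjusted p = 0.00392), but it was -0.04 when a trend on GC content was removed, and the call was lost. CNPY2, a small saposin-like ER protein, was at 14.5, 16.1 and 16.9 TPM in vector control, against 20.1, 19.5 and 18.8 TPM with PRMT1, higher by 0.28 on the log2 scale (limma adjusted p = 0.0367). That call did not hold when 1 library was left out, for 5 of the 6 libraries, and the difference was -0.05 after median-of-ratios scaling.

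The other lumenal genes were not called on the deposited scale with all 6 libraries. HYOU1 (GRP170), a nucleotide exchange factor for BiP, was at 135, 147 and 87.8 TPM in control libraries and 99.3 to 100.4 TPM after PRMT1 transfection, so that control 3 lay below all PRMT1 libraries and the other controls above them. Its log2 difference was -0.27 (limma adjusted p = 0.238), but without control 3 it was -0.495 and called lower. CRELD2 and MANF, secreted products of the stress response, had log2 differences of -0.15 (95% interval -0.37 to 0.08) and -0.10 (-0.26 to 0.05). All 3 were called lower after median-of-ratios scaling, with adjusted p of 0.00995, 0.00979 and 0.00302 by limma, and CRELD2 also after quantile normalization (-0.52).

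In the calnexin cycle, which retains glycoproteins until they are folded, 1 of 3 genes fell, where 8.64% of all tested genes were lower. After median-of-ratios scaling 2 were lower and none higher (24.1% and 23.5% of all). CALR (chr19:12938578-12944489) was at 1458, 1466 and 1502 TPM in vector control, against 1056, 1068 and 1072 TPM with PRMT1. Both groups were tight and well apart, with a log2 difference of -0.47 (SE 0.05, limma adjusted p = 0.000367). It was -0.83 after median-of-ratios scaling and -0.20 after quantile normalization, both called. Its membrane-bound counterpart CANX was at 758, 788 and 538 TPM in control libraries and 610.1, 784 and 616 TPM after PRMT1 transfection, and these groups overlapped. The CANX difference was -0.04 (95% interval -0.41 to 0.33) and changed sign when any 1 library but control 3 or PRMT1 library 2 was left out. CANX was called lower after median-of-ratios scaling (-0.40, limma adjusted p = 0.0243) and without both libraries that stood apart (-0.33, limma adjusted p = 0.00116). UGGT1, the glucosyltransferase that returns misfolded glycoproteins to the cycle, differed by 0.28 (95% interval -0.05 to 0.61) and was not called, though it was called higher with PRMT1 taken out of the total (0.39).

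Of the 11 disulfide isomerases and oxidases, 3 fell, 2 rose and 6 were not called, where 8.64% of all tested genes were lower and 40.3% higher. After median-of-ratios scaling 7 were lower and 1 higher (24.1% and 23.5% of all). PDIA5, an isomerase reported to act on ATF6, was at 40.2, 39.8 and 37.0 TPM in vector control, against 31.1, 29.8 and 30.1 TPM with PRMT1. Every PRMT1 library lay below every control (log2 difference -0.35, SE 0.08, limma adjusted p = 0.00734), and the difference was -0.70 and -0.60 after the scalings. TXNDC11, a thioredoxin-domain protein that works with the EDEM proteins, was at 10.1, 11.1 and 8.87 TPM in control libraries and 16.6, 16.9 and 15.7 TPM after PRMT1 transfection. It was 1.64-fold higher by its means, with a log2 difference of 0.67 (SE 0.11, limma adjusted p = 0.00197) that was 0.34 after median-of-ratios scaling and 0.26 after quantile normalization, still called in both. The remaining calls were less firm. PDIA3, the isomerase that partners calnexin and calreticulin, was at 290.3, 289.5 and 307 TPM in vector control, against 228, 273 and 218 TPM with PRMT1. Its difference of -0.31 (limma adjusted p = 0.0259) lost its call after quantile normalization, with PRMT1 taken out of the total, and when any 1 library but PRMT1 library 2 was left out. P4HB (PDI), the most abundant of these isomerases, was at 547 to 575 TPM in control libraries and 452 to 471 TPM after PRMT1 transfection. Its difference was -0.28 (limma adjusted p = 0.00472), against -0.64 after median-of-ratios scaling and, not called, -0.07 after quantile normalization and -0.16 with the GC trend removed. ERO1B, an oxidase that recharges PDI, was at 10.4, 11.1 and 8.09 TPM in vector control, against 12.8, 16.8 and 14.1 TPM with PRMT1. Its groups did not overlap, and the difference of 0.52 (limma adjusted p = 0.0215) was not called after either scaling (0.19 and 0.11) or with the GC trend removed (0.29), nor without PRMT1 library 2 (0.42).

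Its relative ERO1A was at 31.8 to 35.6 TPM in control libraries and 27.7 to 36.9 TPM after PRMT1 transfection, and its difference was -0.14 (95% interval -0.43 to 0.14). It was called lower after median-of-ratios scaling (-0.49), after quantile normalization (-0.41), with the GC trend removed (-0.30) and without PRMT1 library 2 (-0.27). PDIA4, PDIA6, ERP29 and ERP44, which also handle disulfides, had differences of -0.19, -0.14, -0.12 and 0.23, and none passed the test with all 6 libraries on the deposited scale. After median-of-ratios scaling PDIA4, PDIA6 and ERP29 were called lower (-0.55, -0.49 and -0.47). Without control 3, PDIA4 and PDIA6 were called lower on the deposited scale (-0.28 and -0.29). TXNDC5 was at 35.6 and 40.0 TPM in controls 1 and 2, at 13.1 TPM in control 3 and at 32.8 to 35.3 TPM in the PRMT1 libraries. Its positive difference of 0.35 rested on that control, and without it the value was -0.13. Its exons are shared over 60.6% of their length with the readthrough gene BLOC1S5-TXNDC5.

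The 7 sensors and regulators split: 3 rose, 1 fell and 3 were not called, where 40.3% of all tested genes were higher and 8.64% lower. After median-of-ratios scaling 2 were higher and 4 lower (23.5% and 24.1% of all). XBP1 (ENSG00000100219, chr22:28794555-28800597), the transcription factor whose mRNA is spliced by IRE1, was at 138, 129 and 127 TPM in vector control, against 241, 276 and 229.7 TPM with PRMT1. It was 1.9-fold higher and moved from number 1051 to number 541 in level among the tested genes, with a log2 difference of 0.91 (SE 0.09, limma adjusted p = 0.000251). It was 0.56 after median-of-ratios scaling and 0.96 after quantile normalization. Levels per gene do not separate spliced from unspliced XBP1. ATF6, the sensor that is cut in the Golgi to free its transcription factor domain, was at 13.4, 14.4 and 11.3 TPM in control libraries and 21.5, 26.9 and 20.4 TPM after PRMT1 transfection. Its groups did not overlap, and the log2 difference was 0.77 (SE 0.14, limma adjusted p = 0.00302), 0.43 after median-of-ratios scaling and 0.40 after quantile normalization. Its paralog ATF6B moved the other way, from 56.2, 61.2 and 57.3 TPM to 44.1, 43.9 and 47.3 TPM, a log2 difference of -0.36 (SE 0.08, limma adjusted p = 0.00611) that was -0.71 and -0.53 after the scalings. ERN1, which encodes IRE1, was at 6.75, 7.44 and 5.91 TPM in vector control, against 5.75, 6.44 and 6.23 TPM with PRMT1. The ERN1 groups overlapped, with a difference of -0.11 (95% interval -0.38 to 0.17) on the deposited scale, though it was called lower after both scalings (-0.41 and -0.57). Two-sided exact permutation tests of mean log2(TPM + 1) gave p = 0.1 for XBP1 and for ATF6 and p = 0.4 for ERN1, with 3 libraries a group.

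CREB3L2, an ER-anchored transcription factor related to ATF6, differed by 0.32 (limma adjusted p = 0.0475), a call lost when 1 library was left out, for 5 of the 6 libraries, and after both scalings. CREB3, of the same family, differed by 0.08 and EIF2A by -0.01, neither called, and both were called lower after median-of-ratios scaling (-0.27 and -0.36). EIF2A is a translation initiation factor that is distinct from the PERK substrate encoded by EIF2S1.

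**Figure D2:**
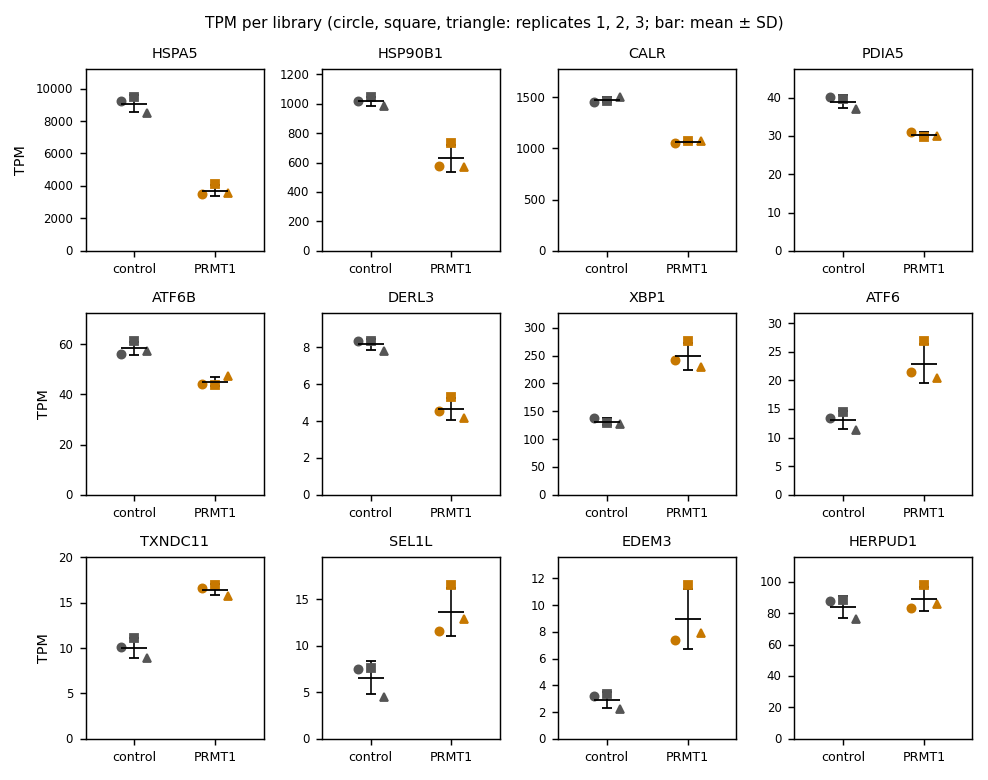
TPM of 12 of the genes in each library, on linear axes that start at 0, with points for the 3 control and 3 PRMT1 libraries and lines at the group means. The PRMT1 libraries lie below all controls for HSPA5, HSP90B1, CALR, PDIA5, ATF6B and DERL3 and above them for XBP1, ATF6, TXNDC11, SEL1L and EDEM3, while the groups overlap for HERPUD1.

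In ER-associated degradation, 6 of 11 genes rose, 1 fell and 4 were not called, where 40.3% of all tested genes were higher and 8.64% lower. The split was 3 higher and 4 lower after median-of-ratios scaling (23.5% and 24.1% of all). It was 3 higher and 3 lower after quantile normalization (20.3% and 19.4% of all). These counts are descriptions, and the set was not tested against all genes. EDEM3, a mannosidase that marks misfolded glycoproteins, was at 3.17, 3.35 and 2.23 TPM in control libraries and 7.37, 11.5 and 7.95 TPM after PRMT1 transfection. It was the gene of the 49 that rose most, 3.06-fold by its means, with a log2 difference of 1.33 (SE 0.19, limma adjusted p = 0.00132). SEL1L, the scaffold of the HRD1 ubiquitin ligase, was at 7.5, 7.63 and 4.52 TPM in vector control, against 11.6, 16.6 and 12.8 TPM with PRMT1. It was lowest in control 3 and highest in PRMT1 library 2, the libraries that stood apart, and its log2 difference was 0.97 (SE 0.21, limma adjusted p = 0.0064), with 0.65 and 0.54 after the scalings. SYVN1, which encodes HRD1 itself, was at 11.3 to 11.8 TPM in control libraries and 16.5 to 18.9 TPM after PRMT1 transfection. EDEM1, related to EDEM3, was at 5.76 to 7.0 TPM against 10.2 to 11.7 TPM. The differences of SYVN1 and EDEM1 were 0.59 and 0.65 (limma adjusted p = 0.00178 and 0.00292), and neither was called after quantile normalization (0.20 for each), nor SYVN1 after median-of-ratios scaling (0.26). DERL1, a derlin of the retrotranslocation channel, differed by 0.53 and SELENOS, a selenoprotein that recruits the p97 ATPase, by 0.36, both called on the deposited scale. Neither was called after median-of-ratios scaling (0.18 and 0.01).

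DERL3 was the single gene of the degradation set to fall, from 8.33, 8.35 and 7.82 TPM to 4.55, 5.31 and 4.16 TPM, a log2 difference of -0.70 (SE 0.12, limma adjusted p = 0.0026) that was -1.0 and -1.14 after the scalings. Its paralog DERL2 differed by 0.21 and was not called. Of the DERL3 exons, 77% lie opposite SMARCB1, which was at a mean of 359 TPM in vector control, against 341 TPM with PRMT1, and without the strand setting of the counting the reads of both genes cannot be told apart. HERPUD1, a ubiquitin-like ER membrane protein strongly induced in ER stress, was at 87.7, 88.5 and 76.0 TPM in control libraries and 83.2, 97.9 and 85.6 TPM after PRMT1 transfection. These ranges overlapped, with a difference of 0.08 (95% interval -0.14 to 0.30) and a two-sided exact permutation p of 0.6, and the gene was called lower after median-of-ratios scaling (-0.27). OS9, a lectin that reads trimmed glycans, differed by -0.24 (limma adjusted p = 0.0524) and EDEM2 by 0.02, neither called, although both were lower after either scaling and OS9 was also called lower without control 3 (-0.325).

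Of the 10 genes of the translocon and signal peptidase, 2 rose, 3 fell and 5 were not called. Over all tested genes 40.3% were higher and 8.64% lower. Median-of-ratios scaling gave 6 lower and none higher (24.1% and 23.5% of all). SPCS3, a subunit of signal peptidase, was at 21.5, 19.8 and 18.6 TPM in vector control, against 27.7, 35.1 and 25.5 TPM with PRMT1. Its groups did not overlap, with a difference of 0.53 (limma adjusted p = 0.012), but the call was lost after median-of-ratios scaling (0.18) and quantile normalization (0.21). SPCS2, another subunit, rose from 78.0, 74.1 and 74.2 TPM to 91.6, 106 and 84.2 TPM, by 0.31 (limma adjusted p = 0.0292), against -0.05 after median-of-ratios scaling and 0.15, not called, with the GC trend removed. SSR4, the delta subunit of the translocon-associated protein complex, was at 221, 221 and 248 TPM in control libraries and 189.9, 179.9 and 196 TPM after PRMT1 transfection. The SSR4 groups did not overlap, and the difference was -0.28 (limma adjusted p = 0.0147), though it was not called with the GC trend removed (-0.11), after quantile normalization (-0.19) or with PRMT1 taken out of the total (-0.17). SEC61B, the beta subunit of the channel, fell from 264, 274 and 299.6 TPM to 243, 243 and 223 TPM, by 0.24 on the log2 scale (limma adjusted p = 0.0296), and SSR2 differed by -0.19 (limma adjusted p = 0.0382). SEC61B was not called after quantile normalization (-0.14), and neither SEC61B (-0.13) nor SSR2 (-0.08) was called with PRMT1 taken out. The SEC61B call was lost when 1 library was left out for 3 of the 6 libraries, and those of SSR2 and SPCS2 for 5 of the 6. The pore subunit SEC61A1 differed by 0.22, SEC61G by 0.12, SSR1 by 0.13, SSR3 by 0.13 and SPCS1 by -0.10, and none of these passed the test. After median-of-ratios scaling SEC61G, SSR1 and SPCS1 were called lower (-0.23, -0.22 and -0.45), and with PRMT1 taken out SEC61A1 and SEC61G were called higher (0.33 and 0.23).

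Summed over the 49 genes, the share of all TPM was 1.71%, 1.75% and 1.59% in the controls and 1.00%, 1.13% and 0.997% in the PRMT1 libraries. Every PRMT1 library was below every control, and the means were 1.68% ± 0.08 and 1.04% ± 0.08 (SD, n = 3 each). PRMT1 itself takes part of the total in the PRMT1 libraries, and outside PRMT1 the mean share there was 1.125%. HSPA5 made up most of the gap: without it the shares were 0.774% ± 0.032 and 0.671% ± 0.042. Within a library a ratio of 2 genes does not depend on the scaling of the total. HSPA5 contributed 54.0% ± 0.40 of the summed TPM of the 49 genes in the controls and 35.6% ± 0.65 in the PRMT1 libraries. The ratio of HSPA5 to XBP1 was 69.1 ± 3.7 in the controls and 14.9 ± 0.46 in the PRMT1 libraries, and that of HSPA5 to HERPUD1, which share the stress pathway, was 108 ± 3.2 and 41.8 ± 0.35. HSPA5 fell also relative to HSP90B1, from a ratio of 8.94 ± 0.26 to 5.96 ± 0.35. XBP1 and ATF6 rose side by side, with ratios of 10.2 ± 1.1 and 10.9 ± 0.56.

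**Figure D3:**
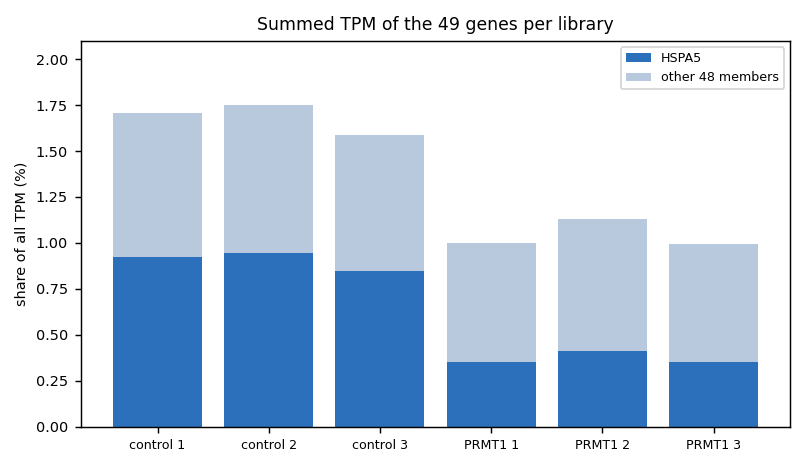
Share of all TPM taken by the 49 genes in each of the 6 libraries, in percent, with HSPA5 and the rest of the 49 as stacked segments. The bars of the controls reach 1.59% to 1.75% and those of the PRMT1 libraries 0.997% to 1.13%, and the HSPA5 segment shrinks from 0.908% to 0.372% on average.

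The direction of change ran with the level of the gene among the 49 genes. Of the 5 genes with a mean of 500 TPM or more over the 6 libraries, 4 were called lower and none higher, where 58.4% and 3.56% of all tested genes of that level were. Of the 15 genes at 100 to 500 TPM, 5 were lower and 1 higher (29.6% and 16.2% of all). Of the 13 at 30 to 100 TPM, 2 were lower and 3 higher (14% and 35.1% of all). Of the 16 under 30 TPM, 1 was lower and 10 were higher (4.14% and 44.8% of all). The same order was thus present in all tested genes: abundant transcripts were more often lower and scarce ones more often higher. Spearman's rho of the log2 difference with the mean log2(TPM + 1) was -0.598 over the 49 genes and -0.262 over all 15341. With GC content it was -0.459 and -0.253, and with exonic length 0.353 and 0.152. These are descriptions across genes, which share libraries and are not independent replicates, and the part of level, GC content and length in the differences was not tested.

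**Figure D4:**
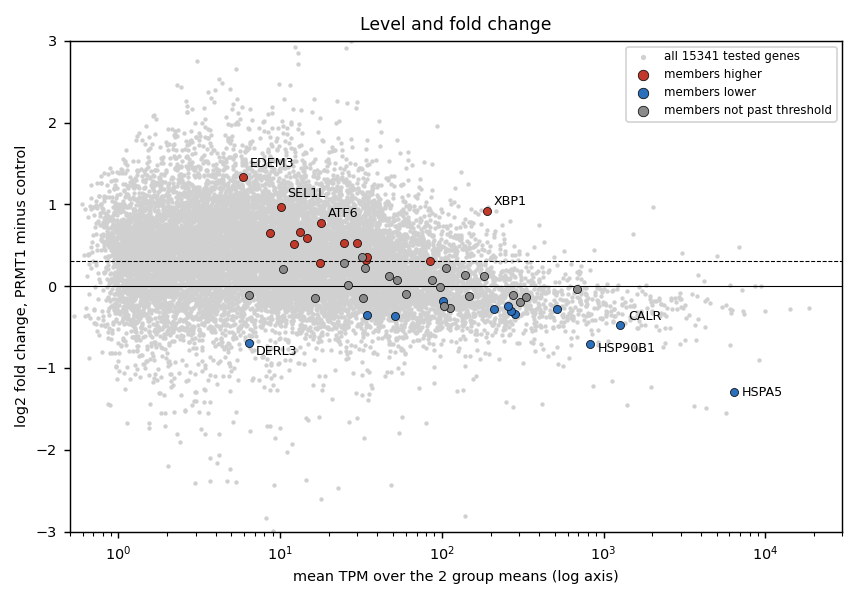
Log2 difference between PRMT1 and control libraries against mean TPM of the 6 libraries (log axis), with all tested genes in grey and the 49 genes in colour. Abundant genes such as HSPA5 lie low and scarce genes such as EDEM3 lie high. The axes leave out 14 of all tested genes, which lie beyond 3 log2 units in either direction or beyond the ends of the TPM axis.

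Further genes of the same pathways, 67 in 8 lists, gave 24 higher, 11 lower and 32 not called on the deposited scale, where 40.3% and 8.64% of all tested genes were higher and lower. After median-of-ratios scaling 13 were higher and 27 lower, against 23.5% and 24.1%. The share called higher is thus near the background, and the counts of higher genes in the lists are descriptions that set no list apart. In the PERK branch, which slows translation and induces ATF4, 5 of 8 rose and 2 fell, against 3 higher and 3 lower after median-of-ratios scaling. EIF2AK3, which encodes PERK, was at 1.54 to 2.38 TPM in vector control, against 5.94 to 7.11 TPM with PRMT1 (1.3), and TRIB3, a target of ATF4, at 10.9 to 11.3 TPM against 22.6 to 26.1 TPM (1.04). DDIT3, which encodes the stress factor CHOP, moved the other way, from 98.1 to 110 TPM down to 57.3 to 71.9 TPM (-0.70), and PPP1R15B, a phosphatase subunit that reverses PERK signalling, differed by -0.71. Among the cytosolic and membrane partners of degradation, 7 of 14 rose and none fell, though after median-of-ratios scaling 4 were higher and 4 lower. FAF2, which recruits p97 to the ER, was at 14.2 to 15.2 TPM in control libraries and 50.6 to 59.2 TPM after PRMT1 transfection (1.79), and UBE2J2, a ubiquitin-conjugating enzyme, differed by 0.94. The signal recognition particle and its receptor had 5 of 8 higher and none lower, with SRPRB at 0.80 and SRP19 at 0.73, against 2 higher and 2 lower after median-of-ratios scaling. Of 4 genes that process the sensors or act beside them 3 rose, among them WFS1, an ER membrane protein that restrains ATF6 (0.89), and RTCB, the ligase that joins spliced XBP1 (0.49). In that list 2 were higher and none lower after median-of-ratios scaling.

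The remaining 4 lists act on the folding chain itself. Beside their counts stand 40.3% higher and 8.64% lower over all tested genes, and 23.5% and 24.1% after median-of-ratios scaling. The oligosaccharyltransferase, which adds glycans, had none of 12 higher and 3 lower, among them OST4 (-0.42) and TMEM258 (-0.34), and 8 lower after median-of-ratios scaling. Glycan trimming had none of 5 higher and 2 lower, the glucosidase MOGS (-0.59) and the glucosidase II subunit PRKCSH (-0.53), and 4 lower after median-of-ratios scaling. Of the 8 prolyl isomerases 3 fell, among them FKBP10 (-0.52) and PPIC (-0.36), and FKBP7 rose (0.52), against 4 lower and none higher after that scaling. The list of J-domain and exchange cofactors, in which SEC62 was also counted, had 3 of 8 higher and 1 lower. After median-of-ratios scaling 2 were higher and 2 lower. The gene that fell was DNAJB9, which helps BiP to hold IRE1 inactive. It was at 28.8 to 42.7 TPM in vector control, against 17.7 to 25.6 TPM with PRMT1 (-0.73). SEC62, a translocon partner, and DNAJC3, which binds unfolded chains, were higher (0.95 and 0.62). The genes named from these 8 lists passed limma's test, and all but FKBP7 and RTCB kept their call after median-of-ratios scaling. After quantile normalization FKBP7 (0.20), OST4 (-0.19) and SRP19 (0.37) were not called.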

How the data were processed

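PolyA-selected RNA of 6 HEK293T libraries was sequenced. Reads were handled with Trimmomatic 0.36, STAR 2.5.2b and featureCounts of Subread 1.5.2 on GRCh38, per the submitters' processing notes; no source used here gives the annotation or the strand setting. The deposited values are TPM per Ensembl gene, summing to 1000000 in each library. The TPM times GENCODE 29 exonic length were whole multiples of 1 read in 95.5% to 95.7% of values under 50 reads (within 0.05 of a read, where chance gives 10%), which gave the depth; counts were not tested. Symbols were found for 56410 of 57500 identifiers. PRMT1 libraries were compared with controls by limma 3.58.1 (R 4.3.3) with a variance trend on log2(TPM + 1), over 15341 genes with at least 1 TPM in 3 libraries, with Benjamini-Hochberg adjustment over all of them and a threshold of 0.05. Log2 differences on this scale understate low genes. The model was tested on simulated data. The alternatives changed pseudocount, filter, scaling, GC trend, PRMT1's share, variance trend, replicate block and libraries. Members and lists were chosen with earlier results of these data known. Values per library are given for HSPA5, HSP90B1, HERPUD1, SDF2L1, XBP1, ATF6 and ERN1 and, in each role, for up to 2 called genes with the largest rise and 2 with the largest fall; libraries of CANX, HYOU1 and TXNDC5 are shown after their values were seen. Of each further list, up to 2 called genes with the smallest p in each direction are named. Promoters are from RefSeq, GRCh38.p14.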

Additional observations from a re-analysis of the deposited data

How the results depend on the processing

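Of the 49 genes, 11 kept their call in all 17 alternatives, a count that was not made over all tested genes. Median-of-ratios scaling gave 6 of the 49 higher and 29 lower (3605 and 3692 of all tested genes, 13 and 27 of the further ER genes), and quantile normalization 7 higher (3109 and 2979 of all). With PRMT1 taken out, 17 of the 49 were higher and 8 lower, against 7601 and 880 of all genes then tested. Without both libraries that stood apart, 2082 of all and 22 of the further ER genes were lower. The median relative to all tested genes, -0.288, became -0.169 with a pseudocount of 5 TPM, -0.115 with no filter and -0.042 after quantile normalization. Leaving out 1 library at a time gave 10 to 12 higher and 8 to 15 lower among the 49 genes, 20 to 24 and 9 to 14 among the further ER genes, 4661 to 5677 and 928 to 1513 among all tested genes, and relative medians of -0.316 to -0.229. Replicate numbers did not pair the libraries: deviations of same-numbered libraries correlated at -0.03, 0.06 and 0.02, and not every library correlated best with its own number. A replicate block gave 13 higher and 10 lower of the 49 and 6275 and 1314 of all, and it ended the calls of CNPY2, SEC61B and SSR2 and of no other of the 49.

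Genes called on the deposited scale whose sign turned were CNPY2 (-0.0549), CREB3L2 (-0.0287) and SPCS2 (-0.0457) after median-of-ratios scaling and CNPY2 (-0.0785) after quantile normalization. The other turns were in genes not called, and the log2 differences they took were as follows. Median-of-ratios scaling gave UGGT1 -0.0621, ERP44 -0.12, CREB3 -0.27, DERL2 -0.118, HERPUD1 -0.274, EDEM2 -0.329, SEC61A1 -0.134, SEC61G -0.232, SSR1 -0.223 and SSR3 -0.225. Quantile normalization gave MANF 0.00643, CANX 0.151, UGGT1 -0.0295, PDIA6 0.0128, ERP44 -0.029, CREB3 -0.0656, DERL2 -0.226, EDEM2 -0.285 and SSR1 -0.0446. Removing the GC trend gave CRELD2 0.00793, SEC61G -0.0584, SSR1 -0.00867 and SSR3 -0.0301. Taking PRMT1 out gave MANF 0.00556, CANX 0.0683, EIF2A 0.0993 and SPCS1 0.00721. Leaving out both libraries that stood apart gave TXNDC5 -0.154, CREB3 -0.00241, HERPUD1 -0.0606, EDEM2 -0.0524, SSR1 -0.0229 and SSR3 -0.133. Leaving out 1 library at a time gave ranges of CANX -0.215 to 0.0604, TXNDC5 -0.134 to 0.637, EIF2A -0.151 to 0.0847, EDEM2 -0.0811 to 0.0665 and SSR3 -0.00588 to 0.22. The cause was not tested. Depth limits only the scarcest genes: DERL3 and EDEM3 had as few as 90 and 102 reads in a library. Pseudocount, filter and variance trend turned no sign among the 49 genes.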
